A study of Bos grunniens with 6 samples.

Results

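The miR-181 family was examined in cultured cells of the yak (Bos grunniens) hair follicle. Its members were the entries of the deposited miRNA table named bta-miR-181a, bta-miR-181b, bta-miR-181c and bta-miR-181d, whatever their arm, which gave 4 of the 2853 entries and 4 of the 757 with cattle names. Cells of the dermal papilla, a mesenchymal structure in the follicle's bulb, and hair matrix cells, the epithelial cells around the papilla that build the hair shaft, were each sequenced in 3 small-RNA libraries. All 6 libraries were labelled wild type, and both cell types were isolated from skin and grown in DMEM/F12 with 10% FBS, EGF at 20 ng/mL, IGF1 at 10 ng/mL and penicillin-streptomycin. The labels speak of biological replicates but name no animals, ages or cultures, so p-values measure only the spread between these libraries. The comparison asks how the miRNA levels of the cell types differ, which is the purpose the series title gives.

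The miR-181 family is a group of conserved miRNAs that share a seed, the stretch of bases near the 5′ end through which a miRNA mostly selects its targets. In mammals miR-181a and miR-181b are made together from a pair of genomic loci, and miR-181c and miR-181d together from another. The family is best known from blood cells, where miR-181a tunes T-cell receptor signalling by repressing phosphatases, and in skin miR-181a and miR-181b are known from the senescence of keratinocytes and miR-181a from that of dermal fibroblasts.

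The sequences that the deposited table lists for the members are shown to make the shared seed and the differences behind it visible. They are written 5′ to 3′ with T for U, and the capitals mark the seed, bases 2 to 8.
miR-181a: aACATTCAacgctgtcggtgagtt
miR-181b: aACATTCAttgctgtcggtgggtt
miR-181c: aACATTCAacctgtcggtgagttt
miR-181d: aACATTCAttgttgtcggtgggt

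The members were 23 or 24 bases long and had the same first 8 bases. Positions count from 1 at the 5′ end of miR-181a, or of miR-181b where miR-181d is set against it. miR-181b differed from miR-181a by A9T, C10T and A21G. miR-181c matched miR-181a with no substitution once G11 was left out, and had 1 more base at its 3′ end. miR-181d differed from miR-181b by C12T over 23 aligned bases and was 1 base shorter. By sequence the family thus fell into the pairs miR-181a with miR-181c (95.8% identity) and miR-181b with miR-181d (95.7%), against 78.3% for miR-181c with miR-181d. These are not the pairs that are made from the same loci. Since miR-181b and miR-181d differ by 1 mismatch, their reads could be divided between both entries by the authors' counting, and the value of each is uncertain to that extent. None of the other 2849 entries matched a member with at most 1 mismatch over at least 18 bases, and 0 of them carried these letters at bases 2 to 8 or at bases 2 to 7. In this table the summed family was therefore the whole of the reads listed with this seed.

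Levels are given in RPM, that is, read numbers brought to a common library total. The libraries rested on 23904796 to 24693655 reads each, of which 71.7% to 73.5% fell on listed entries, and 3 reads corresponded to 0.121 to 0.125 RPM. An RPM value counts molecules read, not bases, so levels of different miRNAs can be compared without a length correction, although small-RNA ligation and PCR can favour some sequences. As a check of the labels, the 6 tested mesenchymal entries (miR-143, miR-145, both arms of miR-199a, miR-199b and miR-214) summed to 88413 to 91201 RPM in dermal papilla and 1204 to 1421 RPM in hair matrix libraries. The 7 epithelial entries (miR-141, miR-184, miR-200a, miR-200b, miR-200c, miR-205 and miR-429) summed to 386 to 458 RPM and to 80101 to 82871 RPM. In bulk libraries such as these, fewer cells of a type and less of a miRNA per cell cannot be told apart.

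Every member was higher in dermal papilla cells, by 1.46-fold to 2.10-fold in mean RPM, and all 4 had an adjusted p under 0.05 in limma (Benjamini-Hochberg over the 503 tested entries). This count has to be read against the whole profile, in which 42.1% of tested entries passed the same test in the same direction, 40.6% in the other and 82.7% in either direction. The dermal papilla and hair matrix libraries of all 4 members did not overlap, against 41.7% of tested entries in this direction and 84.1% in either. The median log2 change of the 4 members was 0.77, and that of all tested entries was -0.01. A positive log2 change means a higher level in dermal papilla, and values were taken as log2(RPM + 1), so that changes of low entries come out too small. Only miR-181d also reached the 2-fold minimum, which 25.2% of tested entries passed in this direction and 19.9% in the other. Ordered by log2 change from the most dermal papilla-sided entry, the members stood at ranks 126 (miR-181d), 147 (miR-181a), 157 (miR-181c) and 170 (miR-181b) of 503.

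**Figure D1:**
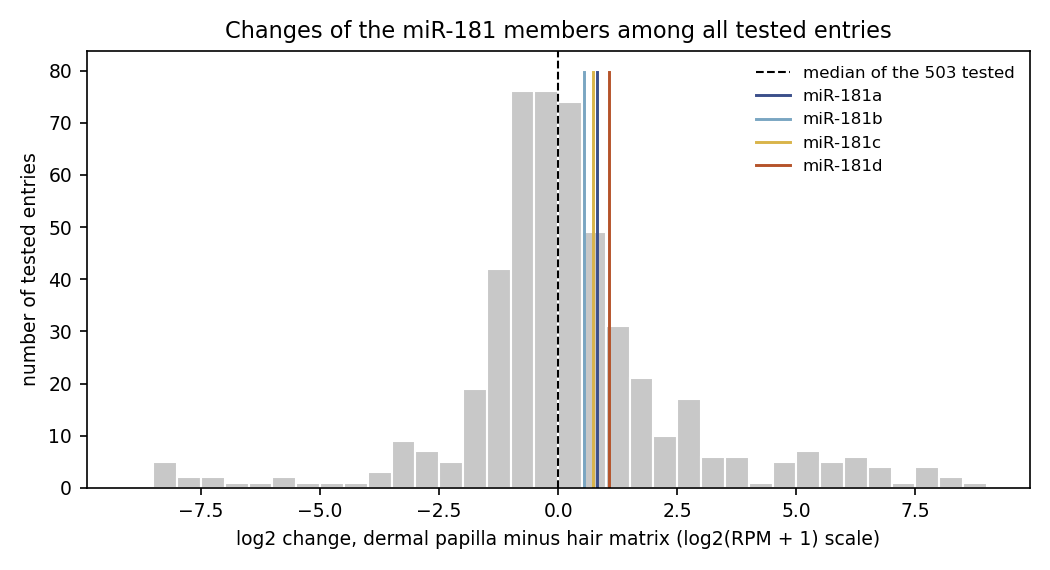
Number of tested entries by log2 change (dermal papilla minus hair matrix, log2(RPM + 1) scale, bins of 0.5), with vertical lines at the 4 miR-181 members and a dashed line at the median of all 503. The members lie between 0.55 and 1.06, to the right of the median at -0.01 and far inside the range of -8.28 to 8.68.

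miR-181a, the member known from T-cell signalling, was the most abundant. It was read at 591, 568 and 613 RPM in dermal papilla libraries 1 to 3 and at 349, 327 and 336 RPM in hair matrix libraries 1 to 3. The lowest dermal papilla library thus stood well above the highest hair matrix library. The means were 591 ± 22.0 and 337 ± 11.4 RPM (SD, n = 3), a 1.75-fold difference with a log2 change of 0.81 ± 0.050 (SE, limma adjusted p = 3.50e-06). Its 95% interval reached from 1.61-fold to 1.90-fold, which leaves 2-fold outside. These values rest on 8000 to 14853 reads per library, and the spread between replicates was 4.45 times the counting error in dermal papilla and 3.06 times in hair matrix cells.

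miR-181b, which is known to dampen NF-kB signalling in endothelium, was second in both cell types and changed least. Its levels were 351, 339 and 343 RPM in the dermal papilla libraries and 236, 236 and 234 RPM in the hair matrix libraries. The replicates were close together and the cell types did not overlap. The means of 344 ± 6.25 and 235 ± 1.28 RPM (SD, n = 3) differed 1.46-fold, a log2 change of 0.55 ± 0.042 (SE, limma adjusted p = 1.21e-05). The interval of the fold was 1.36 to 1.57 on RPM as deposited. The log2 change of miR-181b was smaller with some other scalings, at 0.27 after median centring and 0.09 after quantile normalization. After quantile normalization it did not pass the test (limma adjusted p = 0.115). With DESeq2, which scales the libraries in its own way, the change was larger, at 0.61.

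miR-181d, known in glioma as a repressor of the DNA repair gene MGMT, differed most. The dermal papilla libraries held 99.8, 102 and 94.2 RPM and the hair matrix libraries 46.5, 44.4 and 49.7 RPM. Each dermal papilla library was thus close to double any hair matrix library. The means were 98.6 ± 3.93 and 46.9 ± 2.71 RPM (SD, n = 3), and the log2 change was 1.06 ± 0.066 (SE, limma adjusted p = 3.68e-06). The 95% interval of the fold, 1.87 to 2.32, includes 2-fold, so the data do not place this member on one side of the 2-fold minimum.

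miR-181c, known from heart muscle as a miRNA that enters mitochondria, was far lower than its relatives. It was read at 6.57, 6.10 and 6.52 RPM in dermal papilla and at 3.93, 3.51 and 2.96 RPM in hair matrix libraries. These levels stand on only 146 to 158 and 71 to 97 reads, and yet the exact Poisson 95% intervals of single libraries, which cover counting error only, did not meet. The lowest dermal papilla library reached down to 5.15 RPM and the highest hair matrix library up to 4.79 RPM. The means were 6.39 ± 0.257 and 3.47 ± 0.487 RPM (SD, n = 3), a 1.84-fold difference with a log2 change of 0.73 ± 0.10 (SE, limma adjusted p = 0.000321). On this scale the low level compresses the change, which was 0.80 with a pseudocount of 0.5 and 0.28 with one of 10.

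**Figure D2:**
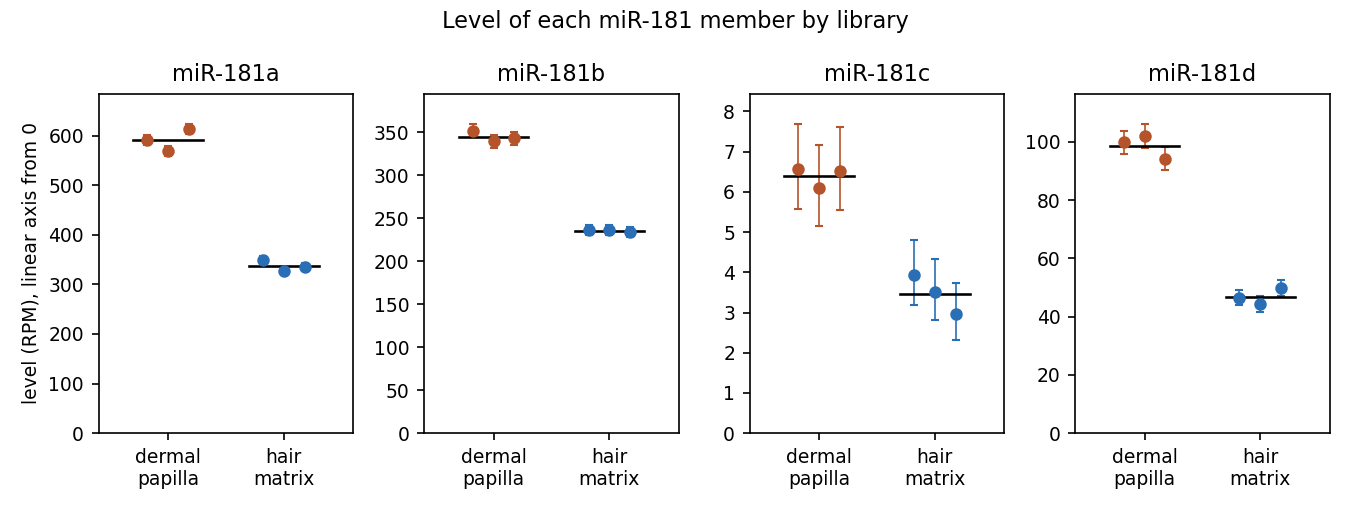
Level in RPM (linear axes from 0, a different range in each panel) of the 4 miR-181 members in dermal papilla and hair matrix libraries; points are libraries with exact Poisson 95% intervals for counting error, and black lines are means of 3. In each panel the 3 dermal papilla libraries lie above the 3 hair matrix libraries, from 568 to 613 against 327 to 349 RPM for miR-181a.

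The order of levels, miR-181a over miR-181b over miR-181d over miR-181c, was the same in both cell types, and no neighbours in it overlapped. In dermal papilla cells the steps down were 1.72-fold, 3.49-fold and 15.4-fold, and in hair matrix cells 1.43-fold, 5.03-fold and 13.5-fold. Among the 757 cattle-named entries the members ranked 60, 81, 126 and 239 by mean level in dermal papilla cells, in the same order. In hair matrix cells their ranks were 71, 83, 147 and 258.

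The family as a whole was read at 1049, 1016 and 1056 RPM in the dermal papilla libraries and at 636, 611 and 623 RPM in the hair matrix libraries. The summed level was 1040 ± 21.6 against 623 ± 12.8 RPM (SD, n = 3), a 1.67-fold difference in means. As a share of listed reads this was 0.143% ± 0.00447 and 0.0858% ± 0.00121. The cell types did not overlap, and the log2 difference of 0.74 ± 0.024 (SE) gave p = 0.1 in a two-sided exact permutation test, the smallest p that 3 against 3 libraries can give. Of the difference of 417 RPM, 60.8% came from miR-181a, 26.1% from miR-181b, 12.4% from miR-181d and 0.702% from miR-181c. Seeds were ranked by the summed RPM of all entries with the same bases 2 to 8. This seed stood at place 32 in dermal papilla and 40 in hair matrix cells among 2142 seeds in the table. Of those seeds, only 344 in dermal papilla and 348 in hair matrix cells averaged at least 1 RPM.

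Within the family the make-up differed modestly between the libraries of the cell types. These shares and the ratios below compare members within a library, so a scaling by 1 factor per library leaves them as they are, whereas quantile normalization moves them. miR-181a held 56.8% ± 1.07 of the family in dermal papilla and 54.1% ± 0.717 in hair matrix cells (SD, n = 3), and miR-181d held 9.49% ± 0.553 and 7.52% ± 0.406. miR-181b went the other way, with 33.1% ± 0.571 and 37.8% ± 0.766. For these 3 members dermal papilla and hair matrix libraries stood apart, as the levels of 84.1% of single tested entries did in either direction. How often shares within other families stand apart was not examined. Each of the 3 shares gave p = 0.1 in the two-sided exact permutation test (0.133 adjusted over the 4 shares). The shares of a library add up to the whole, so these are not independent results. The differences in percentage points, dermal papilla minus hair matrix, were 2.65 for miR-181a, -4.68 for miR-181b and 1.97 for miR-181d, and 6.88, -8.78 and 1.82 after quantile normalization, a check added after seeing the data. miR-181c made up 0.615% ± 0.0129 and 0.556% ± 0.0732 with overlapping libraries (exact permutation p = 0.3). Its difference of 0.0586 percentage points was 0.0182 without hair matrix replicate 3 and 0.0894 without hair matrix replicate 1.

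**Figure D3:**
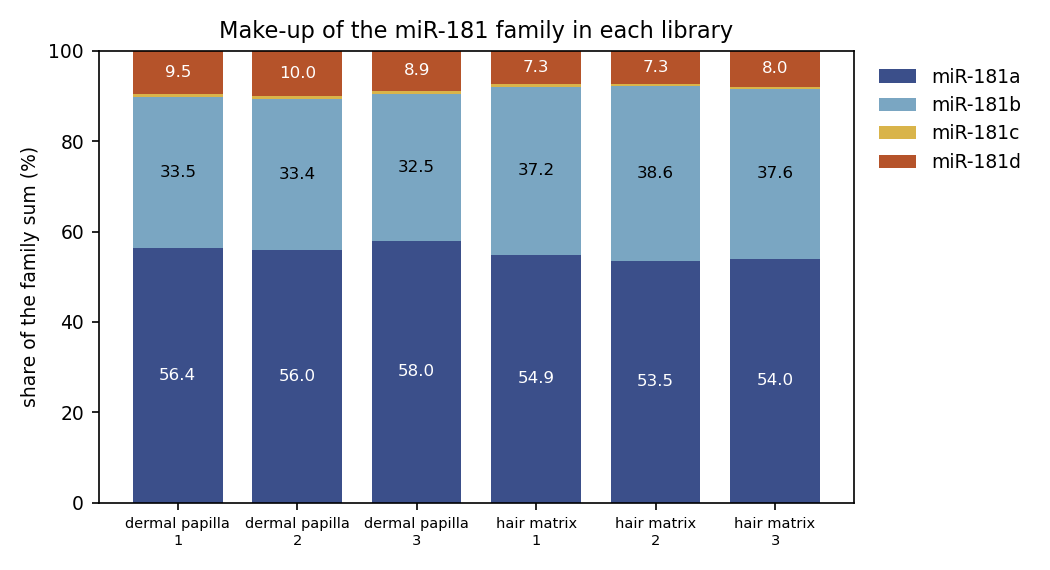
Share of the summed miR-181 RPM held by each member, in percent, as stacked bars for the 6 libraries. miR-181b takes 32.5% to 33.5% in the dermal papilla libraries and 37.2% to 38.6% in the hair matrix libraries, and miR-181c is the thin band under 1%.

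The unequal changes were clearest between miR-181b and miR-181d, which differ in sequence by C12T alone over their shared length. Their reads could be divided between both entries by the authors' counting, so their ratio is uncertain to that extent. The log2 ratio of miR-181b to miR-181d was 1.82, 1.74 and 1.86 in the dermal papilla libraries and 2.35, 2.41 and 2.23 in the hair matrix libraries. All hair matrix libraries thus held more miR-181b per miR-181d, 5.03 against 3.49 reads on average. The difference of -0.53 ± 0.064 (SE) gave p = 0.1 in the two-sided exact permutation test, adjusted to 0.15 over the 6 pairs of members. The ratio of miR-181a to miR-181b, which share their loci, was 1.71 in dermal papilla and 1.43 in hair matrix cells (log2 difference 0.26 ± 0.040, SE), also without overlap and with the same p-values. The ratios of miR-181a to miR-181d and of miR-181b to miR-181c moved by -0.27 ± 0.080 and -0.34 ± 0.12 (SE) without overlap. After quantile normalization, added after seeing the data, the difference was -0.69 for miR-181b to miR-181d, 0.54 for miR-181a to miR-181b, -0.15 for miR-181a to miR-181d and -0.58 for miR-181b to miR-181c.

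For the other 2 of the 6 pairs the libraries overlapped. The ratios are built from the same members and are not independent of each other. How often ratios of other entries stand apart was not examined. Of single tested entries, 84.1% did not overlap in either direction. miR-181a to miR-181c was 1 of the 2 pairs closest in sequence. Its log2 ratios were 6.49 to 6.55 in dermal papilla and 6.47 to 6.83 in hair matrix cells. The difference was -0.08 ± 0.11 (SE, exact permutation p = 0.9). It turned to 0.023 without hair matrix replicate 3 and was -0.15 without hair matrix replicate 1. miR-181c to miR-181d, which share a locus, differed by -0.18 ± 0.17 (SE, exact permutation p = 0.4). This value also hung on single libraries, at -0.34 without hair matrix replicate 3 (exact permutation p = 0.1) and -0.082 without hair matrix replicate 1. At the read numbers of miR-181c these pairs do not show that the members changed alike. With the nearest members summed, miR-181a with miR-181c had a log2 change of 0.81 and miR-181b with miR-181d one of 0.65 (limma adjusted p = 3.55e-06 and 4.00e-06), sums that were chosen after seeing the data.

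**Figure D4:**
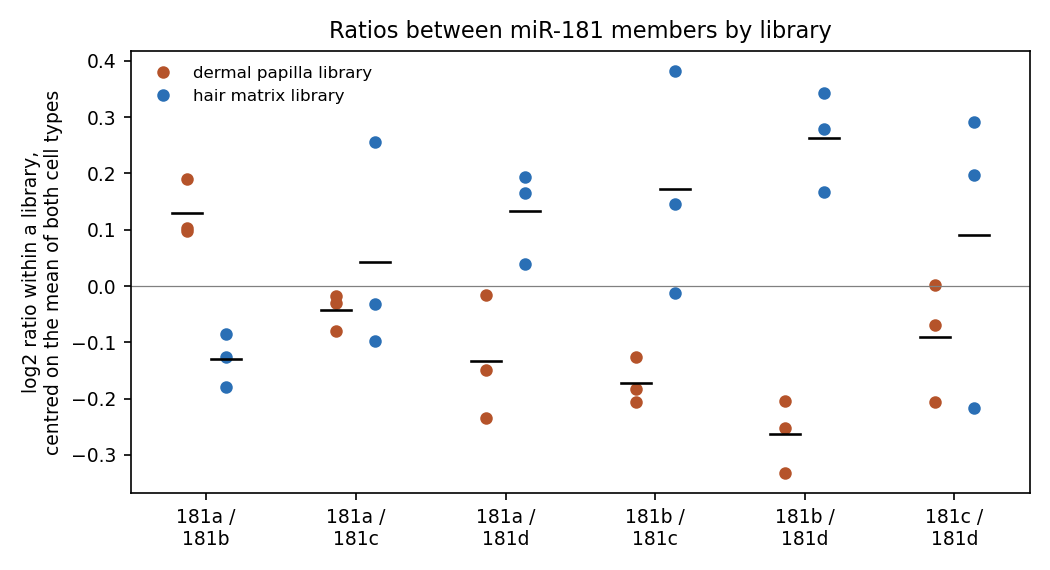
Log2 ratio between 2 miR-181 members within each library, for the 6 pairs, with each pair centred on the mean of both cell types; points are libraries and black lines are means of 3. Libraries of the cell types separate for 4 pairs, most for miR-181b over miR-181d, and overlap for miR-181a over miR-181c and miR-181c over miR-181d. The pairs share members and are not independent, and ratios of other entries were not examined.

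How far the members stood above 0 depended on the scaling, and the median of all tested entries moved too. This median was -0.01 on RPM as deposited, -0.29 after median centring, -0.23 after quantile normalization and -0.17 with RPM computed after removal of the 5 most abundant entries, where 588 entries passed the filter. After median centring the log2 changes were 0.53 for miR-181a, 0.27 for miR-181b, 0.46 for miR-181c and 0.78 for miR-181d, each with a limma adjusted p under 0.05. After quantile normalization miR-181a, miR-181c and miR-181d had 0.63, 0.55 and 0.77 and passed, unlike miR-181b. Relative to the median of all tested entries the changes were 0.82, 0.56, 0.74 and 1.07 for miR-181a to miR-181d on the deposited scale, and 0.86, 0.32, 0.78 and 1.00 after quantile normalization. The 127 and 100 entries called at 2-fold in dermal papilla and hair matrix became 109 and 137 after median centring. The call of miR-181d at 2-fold was lost under these 3 scalings and with a pseudocount of 10. Not every alternative lowered the changes. DESeq2 on whole reads recovered from the RPM values gave 0.87, 0.61, 0.95 and 1.14 for miR-181a to miR-181d.

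**Figure D5:**
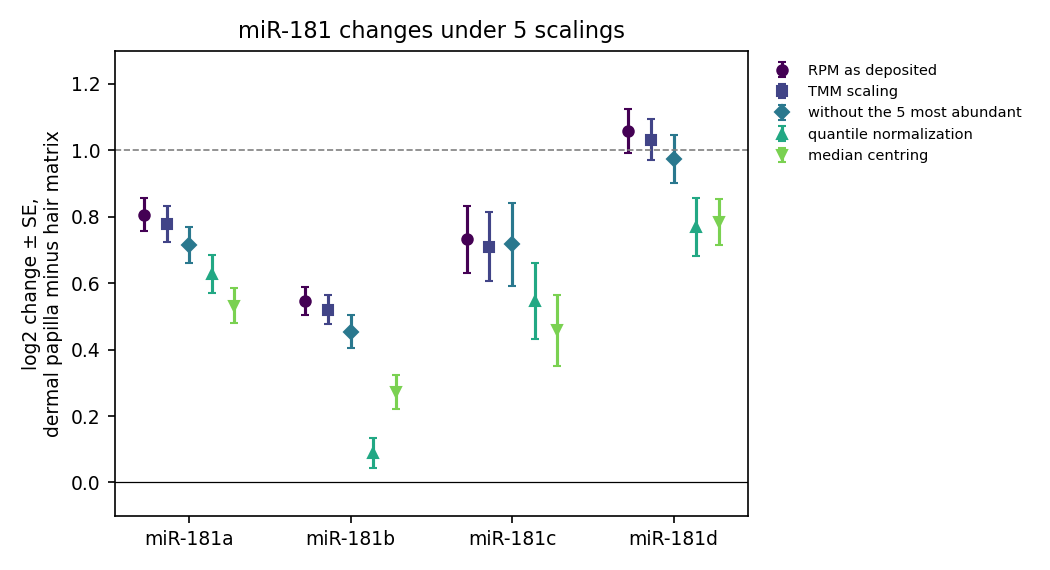
Log2 change (dermal papilla minus hair matrix, ± SE from limma) of the 4 miR-181 members on RPM as deposited and under 4 other scalings; the dashed line marks 2-fold. All points lie above 0, miR-181b is lowest at 0.09 after quantile normalization, and miR-181d passes the dashed line on deposited RPM and after TMM scaling.

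Entries outside the family with the most similar profile were sought by the distance between log2(RPM + 1) values over the 6 libraries, each centred on its own mean, among 409 tested cattle-named entries. The measure is dominated by the difference between the cell types and is a description only. Nearest to miR-181a were miR-320a (distance 0.0921, log2 change 0.85), miR-660 (0.132, 0.81) and miR-11998 (0.140, 0.85). Nearest to miR-181b were miR-185 (0.0831, 0.55), miR-25 (0.0867, 0.56) and miR-361 (0.113, 0.52). miR-181c was nearest to miR-660 (0.191), miR-11998 (0.196) and miR-26a (0.221, log2 change 0.77). For miR-181d these were miR-2285ct (0.144, log2 change 1.12), miR-376d (0.151, 1.13) and let-7i (0.166, 1.03). miR-11998, miR-2285ct and miR-376d averaged under 2 RPM in each cell type, where the pseudocount holds the log2 change down: miR-11998 was at 1.14 and 0.191 RPM and miR-2285ct at 1.26 and 0.0417 RPM in dermal papilla and hair matrix cells, and miR-376d had 0 reads in the hair matrix libraries. Within the family the distances ran from 0.224 for miR-181a with miR-181c to 0.645 for miR-181b with miR-181d.

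Of the 4 miRNAs listed as known together with miR-181a or miR-181b from senescent keratinocytes or dermal fibroblasts (miR-130b, miR-138, miR-152 and miR-191), 3 were tested. Of these 1 passed in each direction, beside 42.1% and 40.6% of all tested entries, so the count sets the list apart in neither direction. The list had a median log2 change of -0.17 beside -0.01 for all tested entries. miR-152, known like miR-181a from senescent dermal fibroblasts, was at 1991, 1928 and 1940 RPM in dermal papilla and 709, 689 and 676 RPM in hair matrix libraries (log2 change 1.50 ± 0.039, SE, limma adjusted p = 2.36e-08). miR-191, known to bring on senescence in keratinocytes, was lower in dermal papilla cells, at 1149 ± 27.4 against 1599 ± 26.7 RPM (SD, n = 3; log2 change -0.48, limma adjusted p = 1.43e-05). miR-130b was at 14.7 ± 0.801 and 16.7 ± 0.778 RPM (log2 change -0.17, limma adjusted p = 0.0654). miR-138 stayed under 0.3 RPM in every library and was not tested.

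Because the family is abundant in blood and vessel cells, markers of those cells were read in the same libraries. The 8 entries of the blood list summed to 409 to 426 RPM in dermal papilla and 126 to 136 RPM in hair matrix libraries, nearly all of it miR-155, which is also made outside blood, at 395 ± 7.17 and 119 ± 4.24 RPM (SD, n = 3). All 3 tested blood entries passed the test as higher in dermal papilla cells, beside 42.1% of all tested entries, and 1 of them, miR-155, reached 2-fold on the log2(RPM + 1) scale. The others were miR-451, at 17.5 ± 1.197 and 8.77 ± 1.73 RPM, and miR-150, at 1.54 ± 0.278 and 0.465 ± 0.197 RPM (SD, n = 3). miR-150 reached the 1 RPM of the filter only in dermal papilla libraries. It was tested only through the group where it was high, so its direction adds nothing to the count. The defining miR-142 and miR-223 were at or near 0, with at most 0.125 RPM for either arm of miR-142 and at most 0.742 RPM for miR-223. For miR-126-3p, a marker of endothelium, the means were 3.66 ± 0.392 and 2.81 ± 0.655 RPM (SD, n = 3; limma adjusted p = 0.0788). In the muscle list 2 of 5 entries were tested and went opposite ways, miR-1 at 66.0 ± 8.13 and 25.4 ± 0.843 RPM and miR-499 at 0.374 ± 0.232 and 16.04 ± 1.74 RPM (SD, n = 3), both past 2-fold. miR-499 reached 1 RPM only in hair matrix libraries, so it was tested only through the group where it was high. The sums of the muscle list were 58.4 to 72.9 RPM in dermal papilla and 40.9 to 42.6 RPM in hair matrix libraries. Whether other cell types contributed to the difference in the family was not tested.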

How the data were processed

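Per the submitters' processing notes, Trimmomatic, HISAT2 2.2.1.0 and DESeq 1.20.0 were used, with no roles given. The build, the miRNA reference and the handling of multi-matching reads were not given in the sources used here. Libraries were made from 1 µg of RNA with a small-RNA kit, per the labels' protocols. The values the authors deposited as TPM are RPM, since 100% of them were whole multiples of 1 read per library within 0.001 read, and whole reads were recovered from them. All entries that reached 1 RPM in 3 or more libraries were fitted with limma 3.58.1 in R 4.3.3 on log2(RPM + 1), with cell type as the term and a trended prior variance. An adjusted p under 0.05 passed the test, and at least 2-fold was needed in addition for a call. Family sums, shares and ratios were tested by exact permutation over libraries, in Python 3.11.15.

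The members and lists were chosen with earlier results of these data known. Named entries were the members, the 3 nearest profiles of each, the senescence list and up to 2 entries of each marker list; miR-142, miR-223 and miR-150, and the names in the marker sums, fall outside that rule and were added after their values were seen. Alternatives covered pseudocount, filter, scaling, variance model, replicate block, edgeR 4.0.16 and DESeq2 1.42.0 on recovered reads, cattle names only and leaving out each library. The model was checked on simulated data. Replicates differed by more than counting noise (chi-square per degree of freedom 26.6 to 76.8). Hairpins, other arms and genome positions were not analysed here.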

Additional observations from a re-analysis of the deposited data

How the results depend on the processing

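All 4 members kept a positive log2 change under every alternative that could be fitted, and miR-181b alone lost the test, at 0.089 after quantile normalization (adjusted p = 0.115). Adjusted p over all alternatives reached at most 7.65e-05 for miR-181a, 0.00469 for miR-181c and 0.000232 for miR-181d. The number of members called at 2-fold fell from 1 to 0 with a pseudocount of 10, after median centring, after quantile normalization and without the 5 most abundant entries. With a filter of 10 RPM miR-181c was not tested. No entry outside the family was near-identical to a member, so that alternative gave no new value. The family sum had a log2 difference of 0.45 to 0.76 over all settings. The ratio of miR-181a to miR-181c reversed to 0.023 without hair matrix replicate 3, and the leave-one-out range was -0.15 to 0.023. miR-181c had 71 to 158 reads per library, so its values carry the largest counting error of the members, and 3 libraries per cell type keep every permutation p at 0.1 or above.

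Of all entries, 212 and 204 passed the test as higher in dermal papilla and in hair matrix, and 127 and 100 at 2-fold. With a pseudocount of 10 the 2-fold counts were 77 and 40. With a filter of 10 RPM the counts were 126 and 85, and 80 and 47 at 2-fold, since only 244 entries were tested. With no filter 2853 entries were tested, and 266 and 313 passed as higher in dermal papilla and in hair matrix. Leaving out 1 library gave 128 to 204 and 132 to 201, and 65 to 128 and 60 to 104 at 2-fold, where the filter on low values left 429 to 438 entries.

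With the replicate number as a replicate block, limma gave log2 changes of 0.81, 0.55, 0.73 and 1.06 for miR-181a to miR-181d, with adjusted p of 3.44e-05, 0.000169, 0.00138 and 8.09e-05, and 209 and 203 entries passed. Whether the numbers pair the samples is not stated in the labels. Same-numbered libraries had deviations correlated at 0.14, 0.080 and -0.27 across 503 entries, which are not independent replicates. Differently numbered libraries ranged from -0.43 to 0.39. Deviations from a mean of 3 libraries depend on each other, so these correlations cannot decide whether samples were paired. The exact sign-flip permutation test over 3 same-numbered differences cannot go below p = 0.25.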
